A study of Mus musculus with 2 samples.

Results

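TAC2 is the class of mitotic transit-amplifying cells in the mouse corneal epithelium, taken here as every cell that the authors' deposited annotation names TAC2, without the asterisk that marks a second class, TAC2*. It held 3292 of 33885 cells, of which 1809 came from the dry eye library and 1483 from the control library. Both libraries were single-cell RNA-seq (droplet-based, Chromium Next GEM 3ʹ v3.1) of corneal epithelium from male C57BL/6J mice aged 10 weeks, collected 9 days after surgery. The dry eye library pooled 6 right eyes, whose extraorbital and intraorbital lacrimal glands, the sources of aqueous tears, had been removed. The control library pooled the 7 left eyes of the same 7 mice, with their glands in place, and 1 right eye was left out for an injury. Treatment therefore goes with the side of the body and with the library, and none of these can be told apart. With 1 library per group no difference was tested, and the exact 95% intervals given below hold counting error alone.

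The corneal epithelium is renewed from stem cells at its rim, the limbus, whose daughters divide a limited number of times in the basal layer before they move up and stop dividing. Those dividing daughters are called transit-amplifying cells. Cyclin B and its kinase drive entry into mitosis, and the anaphase-promoting complex with its activator Cdc20 then destroys the cyclin. A large set of genes serves spindle assembly, chromosome condensation and chromosome separation in mitosis. Transcription of these genes late in the cycle is known to run through a short promoter element, the cell cycle genes homology region, which the DREAM and Myb-MuvB-Foxm1 complexes contact, often with CCAAT boxes bound by NF-Y upstream.

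The promoters of several genes that define TAC2 are shown because they carry this element close to the start of transcription. Each is given from 120 bases before to 20 bases after the RefSeq start, 5′ to 3′ on the strand of the gene, from RefSeq on GRCm38.p6, and capitals mark the element, TTTGAA, its other form TTTAAA, or TTCAAA where TTTGAA lies on the other strand.

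Aspm, spindle pole protein, chr1:139454653-139454792, plus strand: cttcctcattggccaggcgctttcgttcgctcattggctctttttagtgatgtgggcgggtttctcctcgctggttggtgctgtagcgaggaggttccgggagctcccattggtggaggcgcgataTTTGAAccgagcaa
Hmmr, spindle assembly factor, chr11:40733418-40733557, minus strand: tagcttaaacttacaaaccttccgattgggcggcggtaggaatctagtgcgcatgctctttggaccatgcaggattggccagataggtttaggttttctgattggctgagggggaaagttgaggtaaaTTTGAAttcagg
Cdc20, activator of the anaphase-promoting complex, chr4:118437324-118437463, minus strand: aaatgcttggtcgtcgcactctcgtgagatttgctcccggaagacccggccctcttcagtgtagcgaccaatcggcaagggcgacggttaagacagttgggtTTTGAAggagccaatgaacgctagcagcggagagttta
Top2a, topoisomerase that untangles DNA, chr11:99024170-99024309, minus strand: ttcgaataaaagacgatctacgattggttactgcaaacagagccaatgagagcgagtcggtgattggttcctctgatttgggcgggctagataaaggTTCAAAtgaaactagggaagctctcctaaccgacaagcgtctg
Ccnb1, cyclin B1, chr13:100786467-100786606, minus strand: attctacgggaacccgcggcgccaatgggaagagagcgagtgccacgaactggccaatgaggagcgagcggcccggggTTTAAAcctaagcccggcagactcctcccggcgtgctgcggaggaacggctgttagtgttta
Kif14, kinesin of the late spindle, chr1:136467728-136467867, plus strand: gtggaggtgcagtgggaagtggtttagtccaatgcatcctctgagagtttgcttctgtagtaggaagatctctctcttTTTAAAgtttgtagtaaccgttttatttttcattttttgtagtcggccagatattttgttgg

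Over the whole RefSeq window, 250 bases before to 50 after the start, and on both strands, TTTGAA was found in 56.9% of the 72 matched genes of the mitosis lists. It was found in 14.3% of the 8555 matched genes with at least 50 UMIs in TAC2 and in 20.2% of all 27025 genes of the table. Within 50 bases on either side of the start the shares were 50% for the mitosis genes, 4.0% for genes with at least 50 UMIs in TAC2 and 5.72% for all genes. Of the 29 matched genes of the S phase and replication list, which acts earlier in the cycle, 10.3% held TTTGAA in the window and 3.45% near the start. CCAAT, searched on both strands, was in 68.1% of the mitosis genes, 62.1% of the S phase genes and 41.1% of all genes, so it set the mitosis genes less apart than TTTGAA did. Among the 6 markers, Aspm, Plk1, Hmmr and Kif14 held TTTGAA, and all of these but Hmmr held TTTAAA too. Ccnb1 held TTTAAA without TTTGAA. Each of these markers also held CCAAT, and Nusap1 held none of the motifs in this window. A match is a description of letters and not a binding site, and these motifs were chosen after TAC2 values had been seen.

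TAC2 cells held 19033927 unique molecular identifiers (UMIs, 1 per captured RNA molecule) in dry eye and 13210772 in control. The median TAC2 cell had 8816 UMIs and 2410 genes in dry eye, against 7523 UMIs and 2218 genes in control, and a mitochondrial share of 1.87% against 1.98%. Levels below are in CPM, the UMIs of a gene with the total of each class in each library scaled to 1000000. The libraries shared 74 barcode sequences, and no shared barcode was a TAC2 cell in both.

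The level of its markers set TAC2 apart from the other classes. Aspm, Nusap1, which bundles spindle microtubules, the mitotic kinase Plk1, Hmmr, Ccnb1 and Kif14 were each highest in TAC2 among the classes of both libraries. Aspm (chr1:139454772-139494091, GRCm38) was at 79.0 CPM in dry eye and 91.9 CPM in control TAC2. In TAC1, the class led by S phase genes, Aspm was at 1.02 CPM in dry eye and 1.63 CPM in control, and in Basal cells at 0.304 and 0.445 CPM. These classes were made from the same genes, so the gap describes the annotation and is no test of it. The highest folds of TAC2 over all other unstarred cells belonged in dry eye to the histone Hist1h2af, the Max partner Mxd3, Plk1, Aspm and Depdc1a, at 67.5-fold to 75.8-fold. In control they belonged to Mxd3, Nusap1, Aspm, Plk1 and Ccnb1, at 105-fold to 150-fold.

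**Figure D1:**
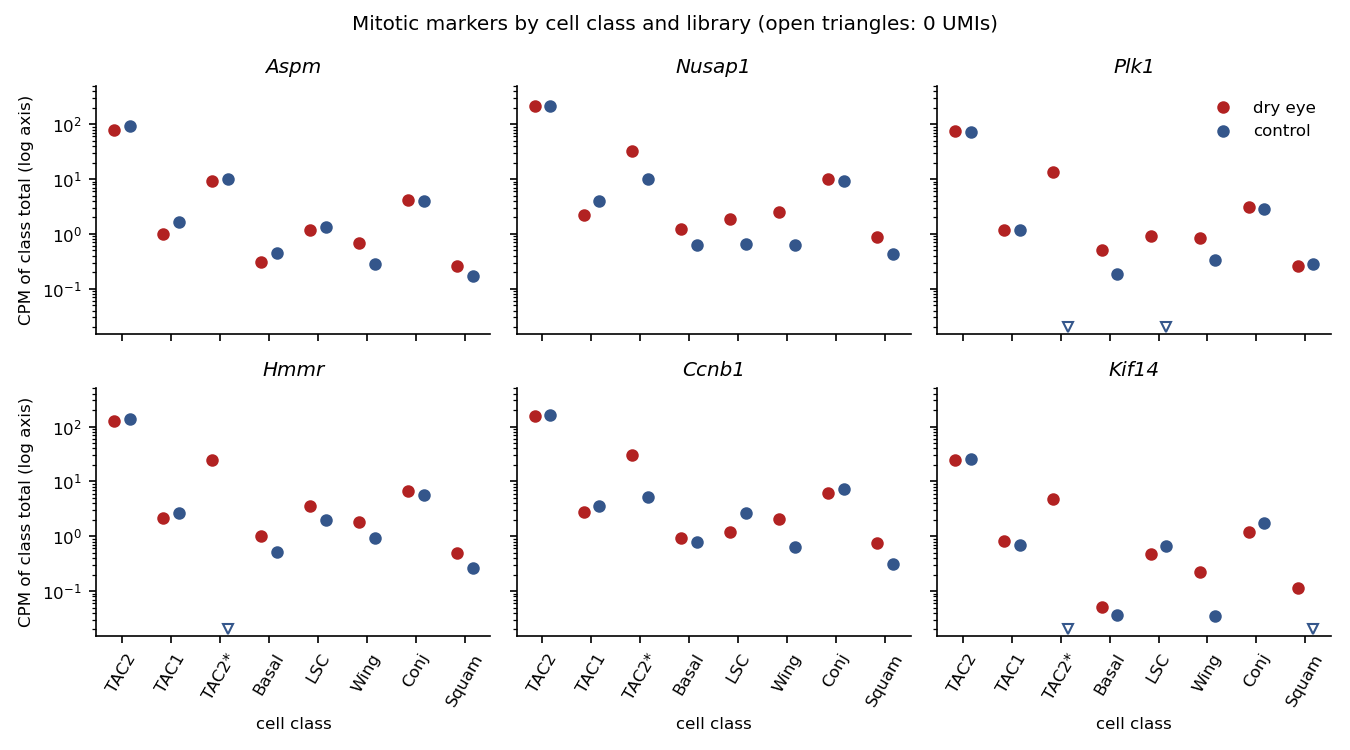
Level of each of the 6 markers, as CPM of the class total on a log axis, in TAC2 and 7 other classes, with dry eye in red left of control in blue and open triangles for 0 UMIs. TAC2 stands highest in every panel in both libraries, and TAC2* is next in dry eye among the classes drawn.

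Other cell types left little trace in TAC2. The summed level of the 8 myeloid and dendritic markers was 2.15 CPM in dry eye on 41 UMIs and 0.151 CPM in control on 2 UMIs, with Cd207 at 0. T cell markers summed to 2.89 and 2.27 CPM, with Cd3e, Cd3d, Cd3g and Nkg7 at 0 in both libraries. The neutrophil markers in the table summed to 1 UMI in dry eye and 2 UMIs in control, melanocyte markers to 3.68 and 4.31 CPM, and the stroma, endothelium, nerve and red cell lists to between 0.210 and 2.12 CPM. Epithelial markers were another matter, since TAC2 cells express many of them. Limbal markers summed to 392 CPM in dry eye and 140 CPM in control, basal markers to 4189 and 2459 CPM, and conjunctival keratins to 199 and 116 CPM. Squamous markers summed to 244 and 287 CPM and wing markers, mostly Krt12, to 14553 and 15581 CPM. The part of the epithelial neighbours in the differences below was not tested.

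TAC2 differed from TAC1 in genes of mitosis and replication, in the same way in both libraries. Cenpa, the histone of the centromere, was at 292 CPM in dry eye TAC2 against 3.70 CPM in dry eye TAC1, and at 305 against 1.63 CPM in control. Cenpf, a kinetochore protein, was 82.1-fold and 71.9-fold higher in TAC2, and Ube2c, the ubiquitin carrier of the anaphase-promoting complex, 51.8-fold and 48.1-fold. The lowest ratio of TAC2 over TAC1 belonged to Ung, which removes uracil from DNA, at 0.0896 in dry eye and 0.0639 in control. Among the 6 lowest in both libraries were also the replication helicase subunits Mcm6, at 0.275 and 0.250, and Mcm2, at 0.273 and 0.253. Not every gene tied to replication was lower in TAC2. The replication-dependent histone Hist1h1b was at 349 CPM in dry eye TAC2 against 30.6 CPM in dry eye TAC1, and at 273 against 22.7 CPM in control. Against Basal cells TAC2 was lowest for Mxd4, at 0.333 and 0.349, and low for cyclin Ccnd2, at 0.447 and 0.509. The starred class TAC2* did not carry the same mitotic level. In dry eye, where it has 572 cells against 21 in control, Aspm was at 9.15 CPM in TAC2* and 79.0 CPM in TAC2, and Cenpf was 8.55-fold higher in TAC2. TAC2* was in turn far richer in Serpina3n, Ly6c1, Fabp4, Timp1 and Socs3, for which the ratio of TAC2 over TAC2* was 0.0663 to 0.0939.

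TAC2 made up 11.02% (10.5 to 11.5) of the dry eye library and 8.49% (8.08 to 8.91) of the control library, a ratio of 1.30 (1.21 to 1.39). Taken over LSC, TAC and Basal cells only, with their starred classes, the shares were 24.0% in dry eye and 20.7% in control, a ratio of 1.16 (1.08 to 1.24). Among TAC1 and TAC2 cells, TAC2 made up 61.4% (59.6 to 63.2) in dry eye and 59.2% (57.2 to 61.1) in control, and these intervals overlapped. These are shares of annotated classes, and TAC2 itself holds cells at several points of the cycle, as described below. Shares also move with how other cells were recovered in dissociation, whose part was not tested.

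Cells were thinned at random to 3000 UMIs to compare detection at equal depth, which left out 104 dry eye and 128 control TAC2 cells. At this depth 67.1% (64.8 to 69.3) of dry eye and 60.1% (57.4 to 62.7) of control TAC2 cells held a UMI of at least 1 of the 6 markers, against 80.9% and 71.5% without thinning. In Squam cells, a surface layer that should not divide, the thinned shares were 0.806% in dry eye and 0.435% in control, at median depths of 9518 and 9343 UMIs before thinning. The TAC2 shares were thus far above this background in both libraries. At 3000 UMIs the share with at least 2 of the 6 markers was 41.0% in dry eye and 37.7% in control. The share with at least 4 lay the other way, at 7.74% in dry eye and 9.96% in control, but at 35.7% and 32.2% without thinning. The summed level of the markers was lower in dry eye, at 675 CPM against 702 CPM in control. As these measures differ in direction, no order of the libraries was read from the share of cells with a marker.

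Along the second axis of the authors' deposited embedding (UMAP_2), TAC2 cells fell into a sequence of expression states. The axis was cut into 7 sections after its values had been seen, and since the embedding was built from these counts the levels along it are a description. At 7 and above, the S phase and replication list summed to 3335 CPM in dry eye and 3478 CPM in control, and the linker histone Hist1h1b was at 929 and 775 CPM. From 6 to 7 the 6 markers peaked, at a sum of 1391 CPM in dry eye and 1467 CPM in control, with Top2a at 734 and 814 CPM and Mki67, the proliferation antigen, at 480 and 537 CPM. From 4 to 5 Top2a was at 58.8 and 78.6 CPM. Cdc20 was at its highest there in both libraries, at 399 CPM in dry eye and 557 CPM in control. Dry eye Cdc20 was close to this from 6 to 7, at 390 CPM. Below 2 the 6 markers summed to 36.4 CPM in dry eye and 22.4 CPM in control and Cdc20 was at 11.04 and 6.62 CPM, but Mki67, at 64.6 and 68.3 CPM, remained above its 16.6 and 13.3 CPM in TAC1. The mitotic label therefore rested on the upper sections, and cells below 3 carried little of the 6 markers.

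**Figure D2:**
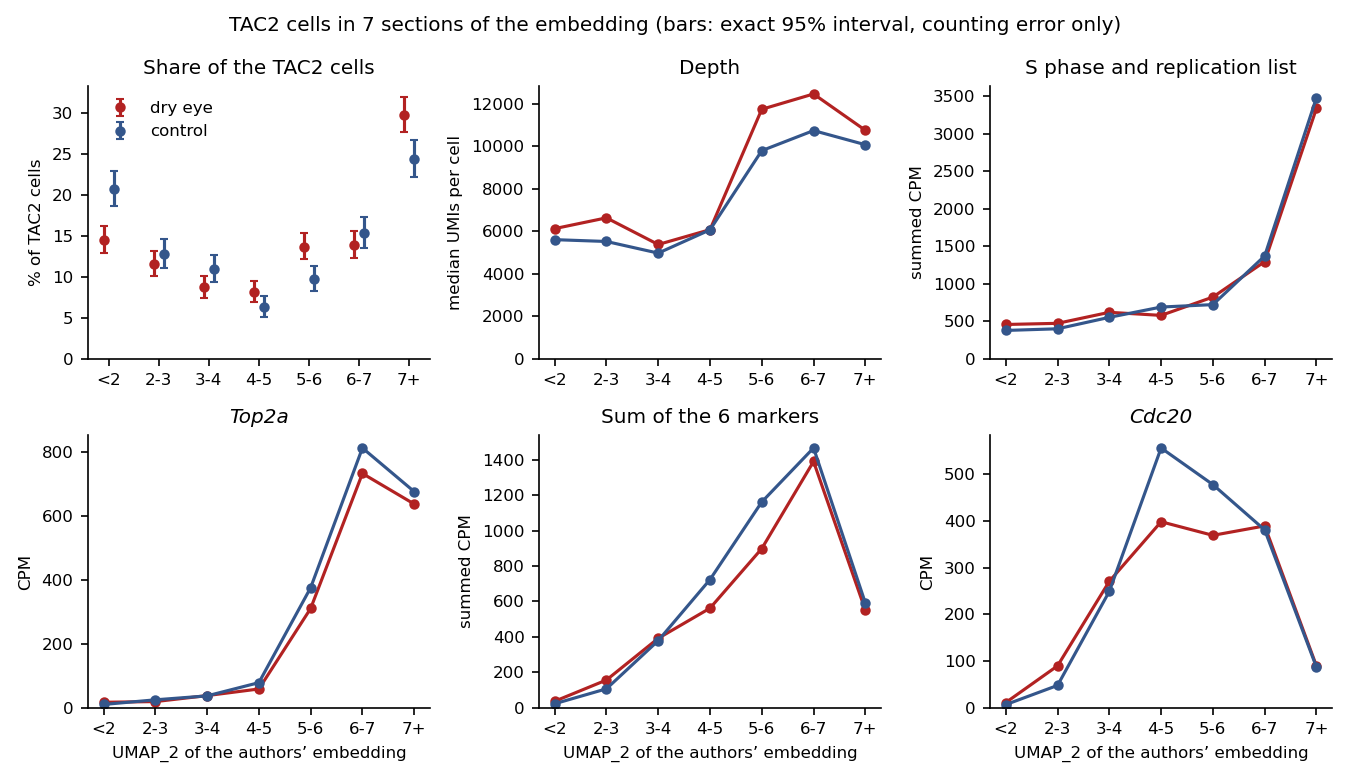
Share of TAC2 cells with its exact 95% interval, median UMIs per cell, and levels in CPM of the replication list, Top2a, the 6 markers and Cdc20 in 7 sections of UMAP_2, dry eye in red and control in blue. Replication genes peak at 7 and above, Top2a and the markers at 6 to 7, and Cdc20 at 4 to 5, closely followed in dry eye by 6 to 7. At 4 to 5 the median cell has 6070 UMIs in dry eye and 6062 in control.

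The libraries filled these sections unequally. Below 3 lay 26.0% (24.0 to 28.1) of dry eye and 33.4% (31.0 to 35.9) of control TAC2 cells, and at 7 and above 29.7% (27.6 to 31.9) of dry eye and 24.3% (22.2 to 26.6) of control cells. Depth moved along the same axis. Cells at 5 and above had a median of 11192 UMIs in dry eye and 10222 in control, against 6124 and 5525 below 5. The part of depth in the unequal shares was not tested.

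Within TAC2, dry eye and control were compared over 5119 genes, those with 50 or more UMIs in all and 20 or more CPM on at least one side. Of these, 72 (1.41%) were at least 1.5-fold higher and 53 (1.04%) at least 1.5-fold lower in dry eye, and 26 were at least 2-fold higher and 4 at least 2-fold lower. The median log2 ratio was -0.03, and 2763 genes lay within 1.1-fold either way. For gene lists the CPM minimum was dropped, and among the 10807 genes with at least 50 UMIs 3.14% were at least 1.5-fold higher and 4.32% at least 1.5-fold lower, with a median log2 ratio of -0.06. This wider set includes genes with fewer counts, and the counts of list members are read against its shares. It held 361 of the 398 genes of the lists. The 50 UMIs were summed over both libraries, so a gene nearly absent from control could enter only through dry eye, where it is high, and had to differ. For the lists this touches, the members with 50 UMIs in control alone are given too, and among the 9525 such genes 1.48% were at least 1.5-fold higher and 3.25% at least 1.5-fold lower.

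Within the cells labelled TAC2, mitotic genes were at nearly the same level in both libraries. The classes were made from genes of this kind, so alike levels are partly set by the label and are no test. None of the 28 spindle motors and microtubule proteins, 28 kinetochore and checkpoint genes, 13 mitotic kinases and passengers, 17 condensin, cohesin and chromosome genes or 19 genes of the anaphase-promoting complex and cytokinesis passed 1.5-fold in either direction. Their medians were -0.10, -0.06, -0.04, -0.11 and -0.05 on the log2 scale, close to that of all genes. With every cell weighted equally the medians of the kinases and of the anaphase genes were 0.09 and 0.0040. With TAC2* counted in, the medians in the same order were lower, at -0.39, -0.33, -0.27, -0.28 and -0.28. Nusap1 was at 211 CPM in dry eye and 217 CPM in control (ratio 0.97, 0.93 to 1.02). Plk1 was at 76.5 and 71.8 CPM (ratio 1.07, 0.98 to 1.16). The counting interval of Aspm, at a ratio of 0.86 (0.80 to 0.93), and of Mki67, at 263 and 308 CPM with a ratio of 0.85 (0.82 to 0.89), lay below 1. The farthest members of these lists were Cenpt, a kinetochore protein, at a log2 ratio of -0.32 and Tuba1c, an alpha tubulin, at 0.21. Ube2c was at 691 CPM in dry eye and 644 CPM in control, and Cdc20 at 216 and 214 CPM.

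Cyclins and their kinases also passed no bound, with 0 of 20 in either direction and a median of -0.03, and Ccne1, the cyclin of S phase entry, highest at 16.3 CPM in dry eye and 11.7 CPM in control (log2 ratio 0.49). Of the 12 inhibitors and exit genes 2 were lower, Cdkn2a, the Ink4a and Arf gene, with 72 UMIs in dry eye and 106 in control (ratio 0.47, 0.34 to 0.64), and Cdkn1c, p57, at a ratio of 0.64 (0.51 to 0.80). Among 17 genes of the late cell cycle transcription complexes, E2f3 was higher at a ratio of 1.74 (1.31 to 2.32) and the DREAM subunit Lin52 lower at 0.50 (0.35 to 0.70), on 61 UMIs in dry eye and 85 in control. All 4 of these genes were below 13 CPM in both libraries.

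S phase genes had a median log2 ratio of 0.06 over 36 members and 1 past the bound, Ung, which entered only through dry eye on 93 UMIs in dry eye and 43 in control. Among 15 histone genes the median was 0.22. Hist1h3c, a histone H3 gene, was higher at 47.5 CPM in dry eye and 24.8 CPM in control (ratio 1.92, 1.69 to 2.18), while the linker histone Hist1h1c was lower at 142 and 229 CPM (ratio 0.62, 0.59 to 0.65). Hist1h1b, at 349 and 273 CPM, had a ratio of 1.28 (1.23 to 1.33), and the share of cells at 7 and above in UMAP_2, where it is highest, was larger in dry eye. Most messages of replication histones lack a poly(A) tail and their copies are alike in sequence, so poly(A) capture and counting can both split them.

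**Figure D3:**
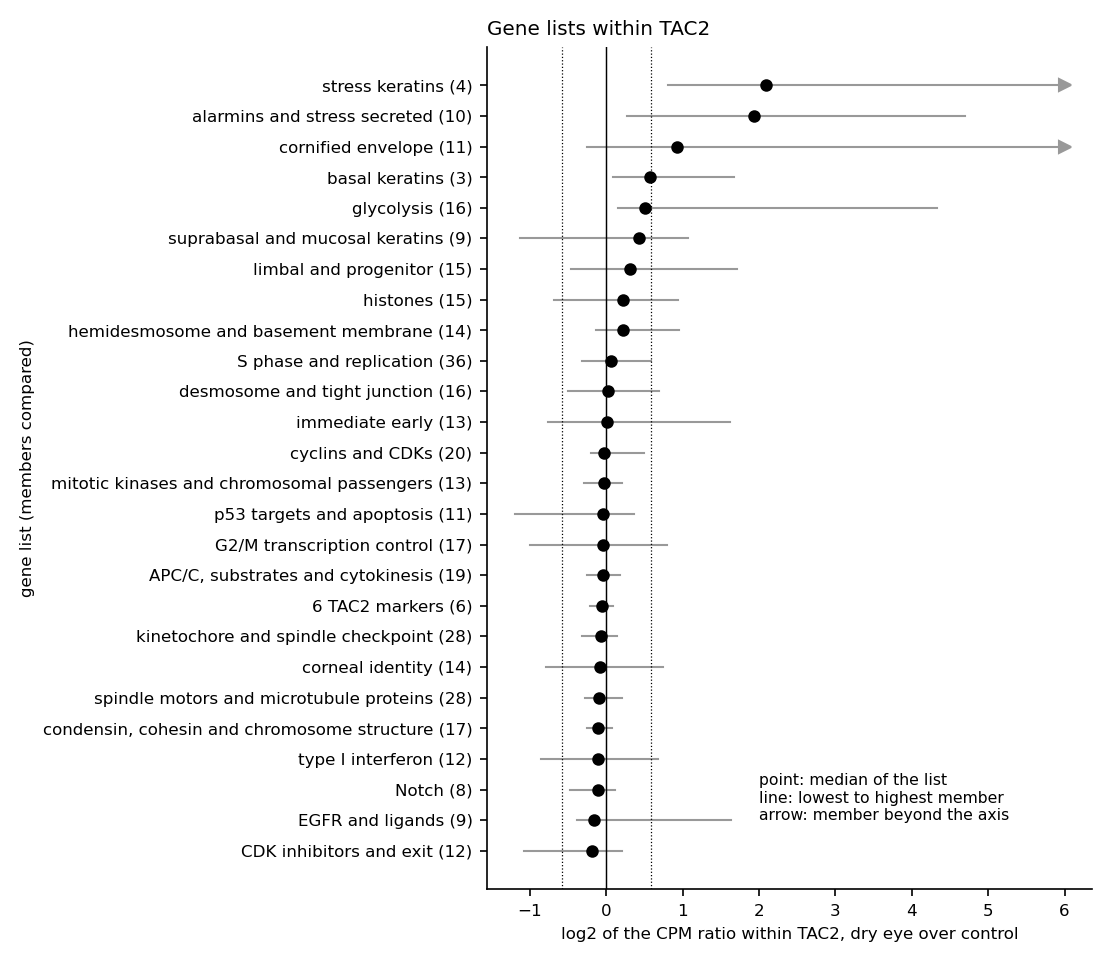
Log2 ratio of dry eye over control within TAC2 for 26 gene lists, with the median as a point, the lowest to highest member as a line, the number of members compared in parentheses and dotted lines at 1.5-fold. The mitotic lists lie around 0, and stress keratins and alarmins lie farthest to the right by their medians.

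The genes that were higher in dry eye TAC2 came mainly from other programmes. All 4 stress keratins, intermediate filament proteins known from wounded and inflamed epithelium, were at least 1.5-fold higher, with a median log2 ratio of 2.08. Krt16 entered only through dry eye, and the median of the other 3 was 1.95. Krt16 (chr11:100246091-100248902) had 4460 UMIs in dry eye and 9 in control, or 234 against 0.681 CPM. Krt6a was at 829 CPM in dry eye and 214 CPM in control (ratio 3.88, 3.72 to 4.04), Krt17 at 47.4 and 10.2 CPM (ratio 4.64, 3.87 to 5.60) and Krt6b at 143 and 82.1 CPM (ratio 1.74, 1.62 to 1.87). Keratins of this family are alike in sequence, so reads shared between copies could be split by the counting.

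Of the 3 basal keratins only Krt14 passed the bound, and it was detected in a larger share of dry eye than of control cells. Krt14 (chr11:100203162-100207548) was at 2379 CPM in dry eye and 746 CPM in control, a ratio of 3.19 (3.12 to 3.26). A UMI of it was found in 95.2% of dry eye and 79.6% of control TAC2 cells, and in 89.6% and 67.5% when cells were thinned to 3000 UMIs. In Squam cells, which should lack this basal keratin, the thinned shares were 18.4% in dry eye and 2.64% in control, both below the shares in TAC2. Detection thus rose in Squam cells too, and the part of RNA from other cells in the TAC2 shares was not tested. Its filament partner Krt5 was at 5265 and 4945 CPM (ratio 1.06, 1.05 to 1.08), and Krt15 at 629 and 423 CPM (ratio 1.49, 1.44 to 1.53). In TAC1 the ratio of Krt14 was 2.87 (2.77 to 2.98) and in Basal cells 2.69 (2.63 to 2.75). It was 1.53 in LSC cells, and 20.7 in Wing, 11.1 in Squam and 10.1 in Conj cells. Corneal identity genes had a median of -0.09 over 14 members. Krt12, the keratin of the corneal epithelium, was at 14469 CPM in dry eye and 15464 CPM in control, and the eye field factor Pax6 at 407 and 482 CPM (ratio 0.84, 0.82 to 0.87). Clu, a secreted chaperone, was the member past the bound upward, at 146 and 87.5 CPM, and Aldh1a1 downward.

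Of 15 alarmins and stress-induced genes 10 could be compared, and 8 of these were at least 1.5-fold higher, with a median log2 ratio of 1.93. S100a8, S100a9 and others entered only through dry eye, and of the 6 members with 50 UMIs in control 4 were higher and 0 lower, with a median of 1.31. Fabp5, which carries fatty acids, was at 2020 CPM in dry eye and 242 CPM in control (ratio 8.35, 8.05 to 8.66), with 18.6% of its UMIs in 10 cells in both libraries. In TAC1 its ratio was 4.32 (4.02 to 4.64) and in Basal cells 2.78 (2.68 to 2.89). S100a9 and S100a8, which form calprotectin, had 1082 and 522 UMIs in dry eye against 29 and 38 in control, but 70.7% and 85.4% of the dry eye UMIs lay in 10 cells. Sparc, a secreted matrix-binding protein, was at 55.5 CPM in dry eye and 25.4 CPM in control. Akr1b8, an aldo-keto reductase, was at 23.6 and 4.54 CPM.

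Of 22 cornified envelope genes 11 could be compared, and 7 of these were at least 1.5-fold higher and 0 lower, with a median log2 ratio of 0.92 that is the same when Sprr1b is set to its bound. As 4 of the 7, Sprr1a and Sprr1b among them, entered only through dry eye, this median is partly set by the minimum. Of the 7 members with 50 UMIs in control 3 were higher and 0 lower, with a median of 0.19. Sprr1a, a small proline-rich envelope precursor, had 702 UMIs in dry eye and 18 in control. Its neighbour in the family Sprr1b had 193 UMIs in dry eye and 0 in control. That is at least 44.7-fold higher with the control library set to 3 counts, with 36.0-fold as the lower end of the exact 95% interval. These 2 genes were not higher in TAC2 alone. Sprr1a had ratios of 30.6 in Wing, 25.5 in Squam, 13.9 in Basal and 1.77 in Conj cells. Sprr1b had 4064 UMIs in dry eye Wing and 739 in dry eye Squam cells, and 0 in both classes of control. The stefin Cstdc5, a protease inhibitor, was at 2225 CPM in dry eye and 308 CPM in control (ratio 7.23, 7.00 to 7.47). The large scaffold proteins Evpl and Ppl were not higher, at ratios of 0.84 (0.79 to 0.90) and 0.88 (0.82 to 0.93). Stefins and small proline-rich genes have near copies, which makes their split between members uncertain.

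All 16 glycolysis genes had ratios above 1, with a median log2 ratio of 0.51, and 7 of them passed 1.5-fold. Of the 13 with 50 UMIs in control 4 passed it, with a median of 0.50. Aldoa, aldolase A, was at 146 CPM in dry eye and 76.7 CPM in control (ratio 1.90, 1.77 to 2.05). In both libraries Aldoa was lower in TAC2 than in TAC1, at 210 CPM in dry eye and 203 CPM in control. It was also lower than in Basal cells, at 221 and 206 CPM. Its ratio of dry eye over control was 1.04 in TAC1 and 1.08 in Basal cells. Pkm, pyruvate kinase, was at 335 and 219 CPM (ratio 1.53, 1.46 to 1.60), and Gapdh at 1071 and 758 CPM (ratio 1.41, 1.38 to 1.45). The lactate exporter Slc16a3 had 58 UMIs in dry eye and 2 in control, a ratio of 20.1 with an interval of 5.33 to 170. The smallest ratio of the list was that of Gpi1, at 1.11 (1.02 to 1.20).

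Other single genes among the highest were Ly6a, a surface protein also called Sca-1, at 96.0 CPM in dry eye and 13.2 CPM in control (ratio 7.25, 6.20 to 8.51). Pthlh, parathyroid hormone-like hormone, was at 37.6 and 6.96 CPM (ratio 5.40, 4.34 to 6.79), and Ptges, which makes prostaglandin E2, at 24.96 and 4.996 CPM. Of 15 limbal and progenitor genes compared 6 were higher, or 3 of the 12 with 50 UMIs in control. Among the 6 was Gpha2, a hormone subunit known as a limbal stem cell marker, at 143 CPM in dry eye and 63.5 CPM in control (ratio 2.26, 2.09 to 2.44). The membrane protein Ifitm3 was at 245 and 75.1 CPM (ratio 3.26, 3.04 to 3.49), whereas the epithelial master factor Trp63 was at 159 and 192 CPM (ratio 0.83, 0.78 to 0.87). Of the basement membrane genes, the laminin chain Lamb3 was at 27.1 CPM in dry eye and 17.9 CPM in control. The immediate early genes lay on both sides, with Fosb higher at a ratio of 3.08 (2.51 to 3.80) and Zfp36, which destabilises cytokine messages, lower at 0.59 (0.54 to 0.64). Of 9 genes compared in the EGFR list 3 ligands were higher, or 2 of the 8 with 50 UMIs in control, with Hbegf at 26.0 and 10.2 CPM.

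Notch genes stood close to all genes, with 0 of 8 past the bound in either direction and a median of -0.11. Desmosome and tight junction genes had a median of 0.02, near that of all genes. Of these 16 genes 2 were higher and 0 lower, against 3.14% and 4.32% of all genes with at least 50 UMIs. Type I interferon targets had 1 of 12 higher and 1 lower, or 0 and 1 of the 9 with 50 UMIs in control, and p53 targets 0 of 11 higher and 1 lower, Trp53inp1 on 52 UMIs in dry eye and 83 in control. Suprabasal and mucosal keratins had 4 of 9 higher, or 3 of the 6 with 50 UMIs in control, led by Krt4 at 35.8 CPM in dry eye and 17.1 CPM in control, and 2 lower, Krt7 and Krt8.

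Among the genes at 20 CPM or more, the 12 lowest ratios, ranked by the upper end of their interval, belonged to genes outside the cell cycle lists. Fxyd4, a regulator of the sodium pump, was at 7.88 CPM in dry eye and 22.3 CPM in control (ratio 0.35, 0.29 to 0.43). Plac8 was at 40.2 and 94.1 CPM (ratio 0.43, 0.39 to 0.47) and Cyp26b1, which breaks down retinoic acid, at 12.2 and 27.3 CPM (ratio 0.45, 0.38 to 0.53). The same side held the carboxylesterase Ces1d at a ratio of 0.52, the glycogen phosphorylase Pygl at 0.51, the coactivator Cited2 at 0.53, the phospholipase Plce1 at 0.49 and the retinaldehyde dehydrogenase Aldh1a1 at 0.58. Dmrta2os, Mpped2, Npr3, a natriuretic peptide receptor, and the glucocorticoid-induced Tsc22d3 had ratios of 0.53 to 0.58. Fxyd4 and Plac8 were also lower in TAC1, at 0.28 (0.23 to 0.33) and 0.44 (0.38 to 0.49), and in Basal cells, at 0.47 (0.42 to 0.54) and 0.46 (0.43 to 0.50). With free RNA subtracted, Mpped2 stood at 0.85, inside the bound. Free RNA was taken as the lowest mean UMIs per cell among classes with at least 100 cells, separately in each library. TAC2*, Wing* and Squam* reached 100 cells in dry eye alone, so the level subtracted came from unlike sets of classes. The part of this in the value was not tested.

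**Figure D4:**
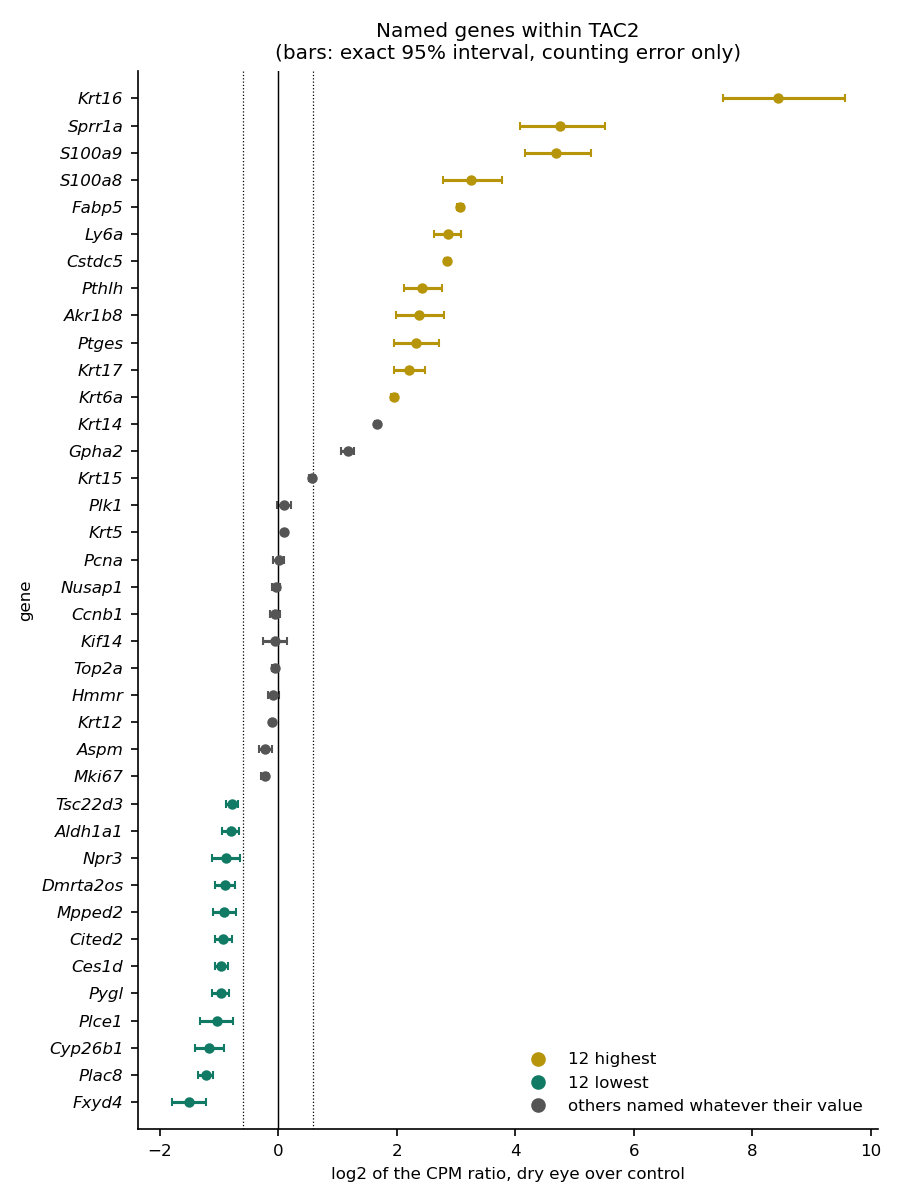
Log2 of the ratio of CPM, dry eye over control, within TAC2 for the genes named by rule, with exact 95% intervals and dotted lines at 1.5-fold. Krt16 stands highest at 8.43 and Fxyd4 lowest at -1.50, with the mitotic markers between them near 0.

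The stress genes were unevenly spread over TAC2. Of the dry eye UMIs of Krt16, 57.8% lay in 10 cells. At 3000 UMIs per cell, 9.68% of dry eye and 0.221% of control TAC2 cells held at least 1 Krt16 UMI, but so did 4.94% of dry eye TAC1 and 5.05% of dry eye Basal cells. A single UMI is therefore not read as expression. At the same depth, 50 of 1705 TAC2 cells in dry eye (2.93%, 2.18 to 3.85) and 0 of 1355 cells in control held at least 3 Krt16 UMIs. The 0 allows a control share of up to 0.221% by 3 counts of the total and 0.272% by the exact 95% interval. The cut was passed by 0.180% of dry eye TAC1 and 0.190% of dry eye Basal cells. It was also passed by 6.87% of dry eye and 1.71% of control Squam cells, so it was not particular to TAC2. In dry eye, Krt16 was at 428 CPM in TAC2*, 9031 CPM in LSC* and 11060 CPM in Wing*. The TAC2 cells past the cut, called Krt16-rich and chosen after their values were seen, were set against the other dry eye TAC2 cells. In them Krt14 was at 11437 against 1955 CPM, Krt6a at 5826 against 596 CPM, Fabp5 at 13757 against 1477 CPM and S100a9 at 998 against 12.9 CPM. Their Top2a was 204 against 427 CPM and Aspm 42.5 against 80.1 CPM, while Ccnb1, at 151 and 155 CPM, was alike. They were deeper, with a median of 12955 against 9097 UMIs, and 10.0% against 1.03% of them were among the 5% of cells with the most UMIs, so pairs of cells in 1 droplet cannot be told apart from single cells here.

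Without the Krt16-rich cells the ratio of S100a9 was 5.91 and of S100a8 2.52, that of Krt16 49.4, that of Fabp5 6.09 and that of Krt14 2.62. With every cell weighted equally Krt16 stood at 175. All 26 named genes past 1.5-fold stayed past it without the Krt16-rich cells, and 59 genes were higher and 49 lower. Krt17 stood at 10.1 without the 10 cells of each library with most of its counts. Counting TAC2* with TAC2 gave 182 higher and 185 lower genes.

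By section of the embedding, Krt16 in dry eye was at 670, 769 and 716 CPM between 3 and 6, and at 17.5 to 32.0 CPM in the sections below and above, near the 17.8 CPM of dry eye TAC1 and the 21.6 CPM of dry eye Basal cells. In the sections from 4 to 5 and from 5 to 6 control held 0 Krt16 UMIs, so dry eye was at least 153-fold and 419-fold higher with the control cells of each section set to 3 counts. The lower ends of the exact 95% intervals were 124-fold and 340.1-fold. Fabp5 followed the same course, at 5722 CPM in dry eye and 410 CPM in control from 5 to 6, against 779 and 270 CPM at 7 and above. Krt14 was higher in dry eye in each of the 7 sections, with ratios of 1.93 (1.86 to 2.004) at 7 and above to 6.09 (5.75 to 6.46) from 5 to 6. Cstdc5 was likewise higher in each, at 2.91 to 20.4, and Krt6a at 1.95 to 22.1. Krt5 and Krt12 stayed between 0.80 and 1.21 in each section.

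**Figure D5:**
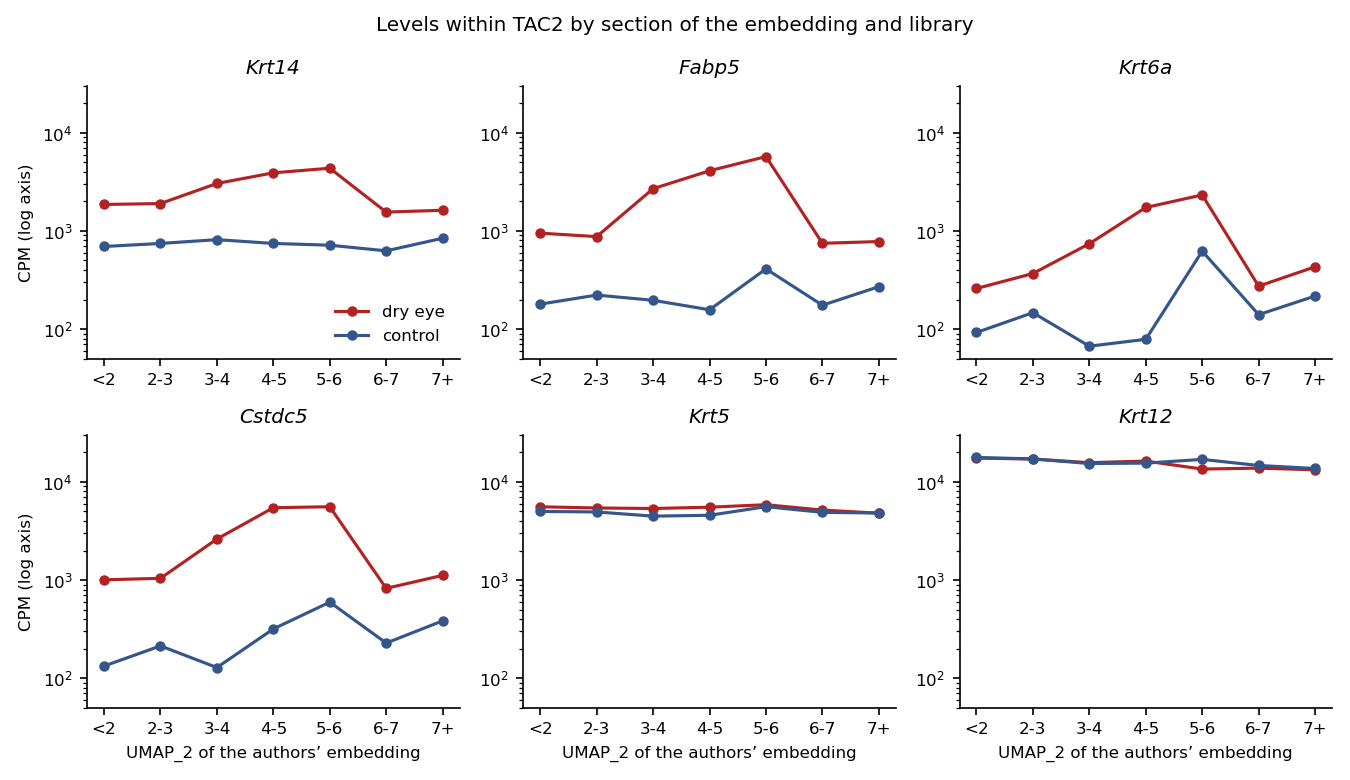
Level in CPM on a log axis of Krt14, Fabp5, Krt6a, Cstdc5, Krt5 and Krt12 in 7 sections of UMAP_2 within TAC2, dry eye in red and control in blue. The first 4 genes lie higher in dry eye in every section, most from 3 to 6, and Krt5 and Krt12 lie close together throughout.

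A second small set, rich in Krt15, was present in both libraries and was also chosen after its values were seen. At least 5 Krt15 UMIs at 3000 UMIs per cell were found in 6.69% (5.55 to 7.98) of dry eye and 5.39% (4.25 to 6.73) of control TAC2 cells, against 1.62% and 0.421% of TAC1 cells and 44.5% and 42.9% of Squam cells. Against the other TAC2 cells of their library, these 114 dry eye and 73 control cells were richer in the mucosal keratins Krt4, 75.8-fold and 118-fold, and Krt19, 68.5-fold and 89.7-fold. Gpha2 was 20.5-fold and 13.8-fold and the membrane protein Ifitm1 12.6-fold and 47.7-fold higher in them. Their Top2a, at ratios of 1.04 in dry eye and 0.98 in control, and their Nusap1, at 1.01 and 0.92, did not stand apart. Krt12 in these cells was at 7778 CPM in dry eye and 13252 CPM in control, against 14983 and 15577 CPM in the other TAC2 cells. Median depth was 11475 UMIs in dry eye and 8995 in control, against 9083 and 8043 in the others, and 3 dry eye and 0 control cells were rich in both keratins. Among the 5% of cells with the most UMIs were 0.877% of dry eye and 4.11% of control Krt15-rich cells, against 1.32% and 1.17% of the others. Pairs of cells in 1 droplet cannot be told apart from single cells here either. In LSC and Conj cells of dry eye, Krt4 was at 360 and 2468 CPM, Krt19 at 170 and 2341 CPM and Ifitm1 at 1909 and 7242 CPM.

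The same genes are set beside their values in the other dividing class. In TAC1, Krt16 was at 17.8 CPM in dry eye on 192 UMIs and at 0 in control, Krt6a had a ratio of 1.996 (1.81 to 2.20), Cstdc5 of 4.12 (3.91 to 4.36) and Ly6a of 2.51 (2.001 to 3.18). In TAC2 these ratios were 3.88, 7.23 and 7.25, but a difference between classes was not tested with 1 library per group. In dry eye TAC2*, which was not compared by ratio because control holds few such cells, Krt14 was at 7876 CPM, Fabp5 at 10907 CPM, Cstdc5 at 11329 CPM and Ly6a at 836 CPM, above TAC2 for each.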

How the data were processed

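Droplet-based single-cell RNA-seq was read with Cell Ranger 6.0.1 and Seurat 4 on mm10, per the submitters' processing notes; the sources used here do not give their cell filters, doublet handling or gene annotation. The deposited count table holds whole UMI counts of 17891 genes in 33885 cells, and the authors' metadata give the class and library of each cell. The UMAP coordinates, an embedding score without unit, are as the authors deposited them. Some genes were not analysed here.

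UMIs were summed per class and library in Python 3.11.15 (numpy 2.4.6, scipy 1.17.1) and scaled to CPM. With 1 library per group no model was fitted. Ratios are dry eye over control, with exact 95% intervals from the split of both counts. Genes count as higher or lower past 1.5-fold. For equal depth, cells were thinned without replacement to 3000 UMIs. No doublet caller was run, and leaving out the 5% of cells with the most UMIs was an alternative. The steps were tested on simulated counts.

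Named were 16 genes whatever their values, the 12 highest and 12 lowest ratios by the bound nearest to 1 (without predicted, mitochondrial, ribosomal protein and haemoglobin genes), up to 2 members on each side of each list, the 10 leading genes of TAC2 and the 6 highest and lowest against other classes. Pax6, Cdc20, Ube2c, Pkm, Gapdh, Sparc, Ifitm1, Krt19, Cenpf and Hist1h1b fall partly outside this rule and were added after their values were seen. The cells, lists and rules were chosen with earlier results of these data known. Gene coordinates are those of GENCODE vM21 on GRCm38.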

Additional observations from a re-analysis of the deposited data

Results flagged for a closer look

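S100a9 was higher in dry eye TAC2 cells, at a ratio of 25.9 over control, and lower in dry eye Squam cells, at 0.599. S100a8 was higher in dry eye TAC2 cells, at 9.53, and lower in dry eye LSC cells, at 0.268. In both cases the direction in TAC2 was opposite to that in another class of the same libraries, and with 1 library per group the difference was not tested. Other classes went the same way as TAC2. S100a9 was at 16.3 in Wing, 4.77 in TAC1, 4.57 in Basal and 2.22 in Conj cells. S100a8 was at 9.09 in Wing, 6.56 in Conj and 3.57 in Basal cells, and at 0.799 in Squam cells. The S100a8 ratio in LSC rests on 51 UMIs in dry eye and 67 in control. The values in TAC2 rest on few cells, since 10 dry eye cells held 70.7% of the S100a9 and 85.4% of the S100a8 UMIs.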

How the results depend on the processing

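The ratio of the TAC2 share, 1.30 in all cells, was 1.44 over unstarred classes only, 1.16 over LSC, TAC and Basal cells and 1.68 with TAC2* counted in. The 72 higher and 53 lower genes became 551 and 768 with a minimum of 20 UMIs and no CPM minimum, 32 and 16 with 200 UMIs and 50 CPM, 182 and 185 with TAC2* counted in, and 472 and 169 with free RNA subtracted; fewer or more genes are compared under the first pair, and otherwise the cause was not tested. Median-of-ratios scaling, equal weight for each cell, leaving out cells under 2000 UMIs, the 5% deepest cells or the Krt16-rich cells (the last chosen after seeing the data) kept both counts within 1.5 times. Of the 38 genes named whatever their value or as highest or lowest, none of the 26 past 1.5-fold changed side of 1 under the alternatives run. Of the other 12, 5 did: Nusap1 (1.02), Ccnb1 (1.02) and Kif14 (1.0004) with every cell weighted equally, Plk1 (0.85) with TAC2* counted in and Krt12 (1.102) with free RNA subtracted. The median log2 ratio of the 6 markers, -0.05, was 0.01 with every cell weighted equally and -0.37 with TAC2* counted in. The share of TAC2 cells with at least 1 marker was 7.02 percentage points higher in dry eye at 3000 UMIs. It was 4.23 points higher with cells thinned to 5000 UMIs and 9.38 points higher without thinning. Other genes were not refitted singly. The ratios of Krt16, S100a8 and S100a9 without the 10 cells with most of their counts could not be computed, as control then held 0 UMIs. No paired analysis was possible because each group is 1 library of pooled eyes. Depth limits genes under 50 UMIs in TAC2, and free RNA and doublets were not measured directly. The free RNA level was taken from sets of classes that differ between the libraries, and the part of this in the counts and ratios with free RNA subtracted was not tested.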
